A study of Mus musculus with 27 samples.

Results

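Among 20156 RefSeq genes measured by RNA-seq, 49 were expressed in mouse embryonic fibroblasts (MEFs), were still expressed in partially reprogrammed cells (pre-iPSCs), and were low in induced pluripotent stem cells (iPSCs). A gene was taken where, in each of the 2 expression tables, FPKM + 1 in MEFs and FPKM + 1 in pre-iPSCs were both at least 4 times FPKM + 1 in iPSCs. FPKM is the number of fragments per kilobase of transcript for every 1000000 mapped fragments. Myc, Tgfbr2, Vim and symbols that start with Col, Itg or Mmp were left out by name, which removed 1 gene, Myc. The expression levels that chose these genes are therefore given as a description with no test, whereas the histone marks at their promoters were not used in the choice.

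The MEFs came from embryos of day 13.5, hemizygous for an Oct4-GFP transgene and a Rosa26 allele, and were used within 3 passages. Pre-iPSCs and iPSCs were made from such MEFs with retroviral Oct4, Sox2, Klf4 and Myc, and grown to passage 6 in medium with LIF on feeder layers of MEFs. They were 2 stable pre-iPSC clones and the iPSCs that correspond to them, so pre-iPSC and iPSC samples may be linked by clone. The sources used here do not tie a library to a clone. RNA-seq, H3, H3K4me3 and H3K27me3 were available as 2 samples of each cell type and H3K9me3 as 1, which the study describes as biological replicates, and a p-value measures only the spread between these samples. MEFs were digested with more MNase and for less time than the other cells, and a difference from MEFs in the marks cannot be told apart from the digestion.

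Somatic cells that receive the reprogramming factors can stall as pre-iPSCs, which proliferate as compact colonies but have not fully switched on the endogenous pluripotency network. Silencing of the fibroblast programme precedes that switch, and genes differ in when they are silenced. H3K4me3 marks the start sites of active or poised genes, and H3K27me3 is laid down by the Polycomb complex PRC2 at silent genes, often over a broad domain around the start site.

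The markers separated the 3 cell types, though some pluripotency genes were on in pre-iPSCs. The 10 pluripotency markers, which include the introduced Pou5f1 and Sox2, summed to 0.147 and 1.03 FPKM in MEFs, 927 and 3709 in pre-iPSCs but 2402 and 2351 in iPSCs. Nanog was at 0 and 0 FPKM in MEFs, 0.519 and 0 in pre-iPSCs but 49.5 and 73.6 in iPSCs, while Zfp42, Esrrb and Dppa3 were under 0.1 FPKM in both pre-iPSC samples and over 10 in both iPSC samples. Tdgf1, by contrast, was at 228 and 333 FPKM in pre-iPSCs but 258 and 488 in iPSCs. Fgf4 was at 23.1 and 13.9 FPKM in pre-iPSCs and Utf1 at 23.2 and 1.67, below their levels in iPSCs. The summed level of 12 fibroblast markers was 4497 and 4306 FPKM in MEFs, 334 and 103 in pre-iPSCs but 245 and 295 in iPSCs. That of 6 macrophage markers was 34.0 and 20.7, 6.29 and 27.7, and 8.97 and 56.6 FPKM. That of 6 epithelial markers was 5.27 and 5.84, 80.5 and 38.6, and 159 and 206 FPKM, higher in iPSCs than in the other cells. Cdh1, Epcam, Cldn4 and Cldn6 followed this sum. Krt8 was highest in pre-iPSCs, at 14.0 and 20.3 FPKM but 2.11 and 8.86 in iPSCs, and Krt18 was lowest in pre-iPSCs. That of 5 endothelial markers was at most 16.9 FPKM and that of 5 trophoblast markers at most 9.59 FPKM in any sample. Feeder MEFs can add fibroblast RNA to pre-iPSC and iPSC samples, and in bulk RNA fewer expressing cells and less RNA per cell cannot be told apart. The part of these cells in the levels below was not tested.

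The 49 genes were 8.32% of the 589 genes that passed the 4-fold rule between MEFs and iPSCs in both tables. Their median was 48.8 and 53.3 FPKM in samples 1 and 2 of MEFs, 31.3 and 31.3 in pre-iPSCs but 2.49 and 3.86 in iPSCs. A mean of at least 100 FPKM was reached by 20 of them in MEFs, 11 in pre-iPSCs but 1, S100a6, in iPSCs. In iPSCs 7 were under 1 FPKM in both samples and 11 were still over 10 FPKM in both. The loss of a gene was taken as the smallest of its log2 ratios of FPKM + 1, of MEFs or of pre-iPSCs over iPSCs in each table. It ran from 2.03 for Krt19 to 3.39 for Loxl4.

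**Figure D1:**
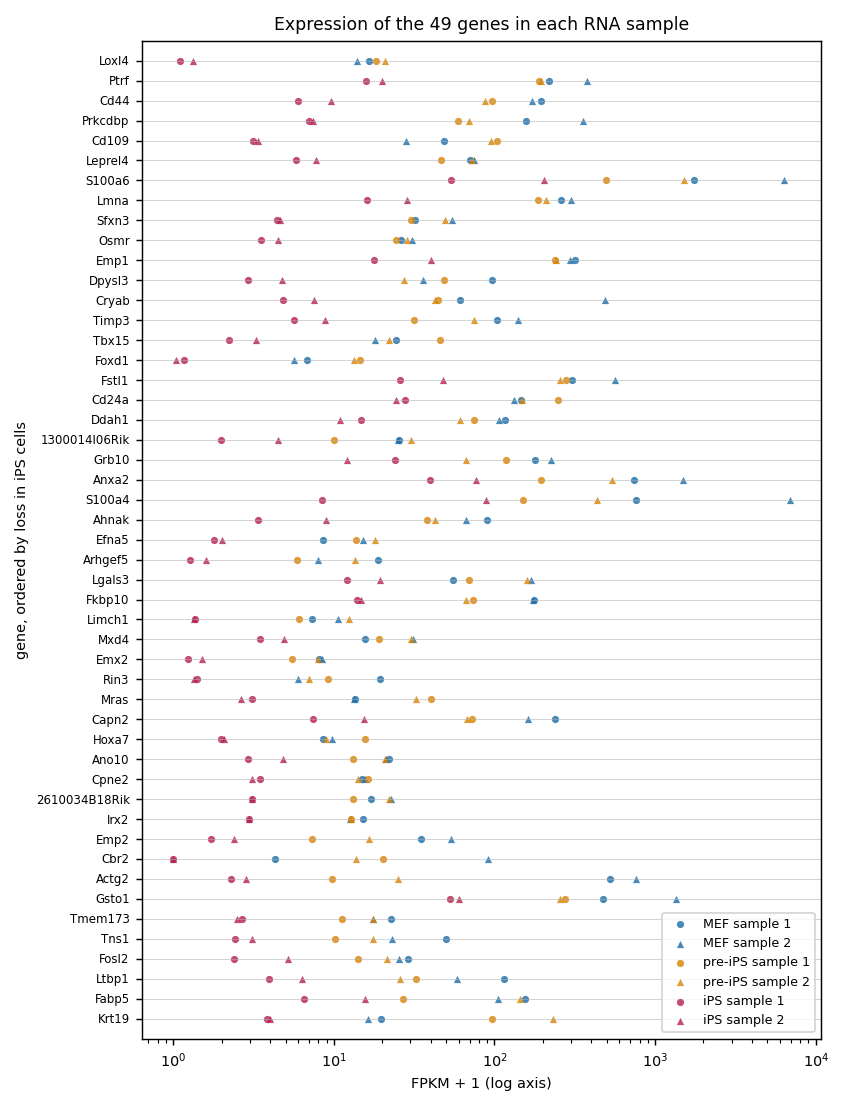
Expression of the 49 genes in each RNA sample, as FPKM + 1 on a log axis, with a row for each gene in order of its loss in iPSCs (largest at the top); circles are sample 1 and triangles sample 2. In every row both iPSC points lie to the left of the pre-iPSC and MEF points, and pre-iPSC points lie far to the right of the MEF points for Krt19 and far to the left for Actg2.

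Just inside the rule stood Ltbp1, Fabp5 and Krt19, with losses of 2.04, 2.03 and 2.03. Just outside it stood Plaur, the urokinase receptor, at 1.99, Irf2, an interferon regulatory factor, at 1.98 and Trib2, a pseudokinase, at 1.98. Plaur was at 115 and 56.8 FPKM in MEFs, 16.3 and 41.3 in pre-iPSCs but 3.36 and 4.36 in iPSCs, close to the values of the genes that were kept. The edge of the group is thus a cut through a continuous range. Myc itself, 1 of the 4 introduced factors, was at 57.8 and 36.3, 337 and 816, and 9.85 and 7.34 FPKM.

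Relative to MEFs of the same table, the 49 genes stood at a median of 64.9% and 90.1% in pre-iPSCs but 5.35% and 8.95% in iPSCs. The 12 fibroblast markers, none of which met the rule and some of which are collagens left out by name, stood at 12.5% and 5.86% in pre-iPSCs but 6.70% and 11.5% in iPSCs. In both pre-iPSC samples 24 of the 49 genes and 0 of the 12 markers were at 50% of MEFs or more. In the first pre-iPSC sample alone, 3 markers that were under 10 FPKM in the first MEF sample passed this level, with Lum at 1372%, Dcn at 243% and Pdgfra at 75.9%. Lum and Dcn were also above MEFs in both iPSC samples. In each of the pre-iPSC samples, Actg2 was the only one of the 49 under the median of the markers. The retention itself was fixed by the rule and was not tested.

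**Figure D2:**
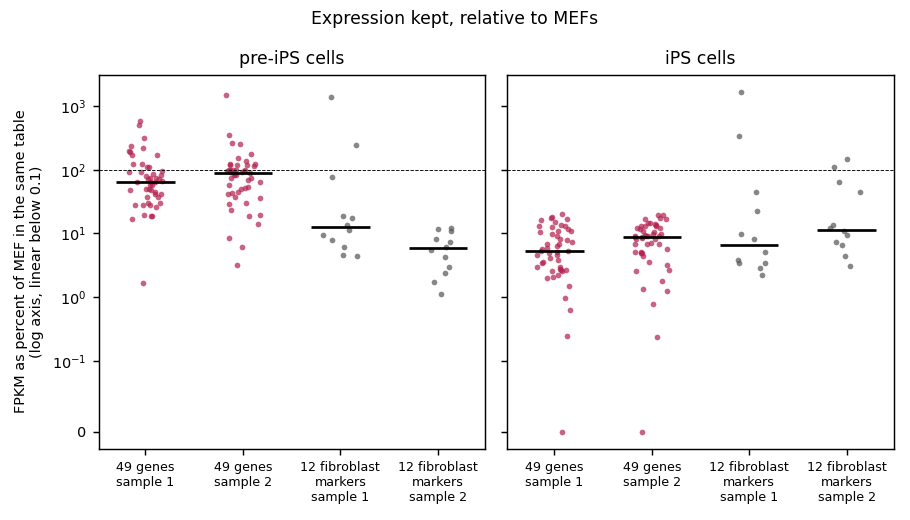
Expression in pre-iPSCs (left) and iPSCs (right) as a percentage of MEFs in the same table, on a log axis that is linear below 0.1, for the 49 genes and the 12 fibroblast markers; each point is a gene, the bar is the median and the dashed line is 100%. In pre-iPSCs the medians of the 49 genes were 64.9% and 90.1% against 12.5% and 5.86% for the markers.

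The most abundant of the 49 genes encoded calcium-binding proteins at the cell membrane. S100a6, a small EF-hand protein, was at 1738 and 6387 FPKM in MEFs, 490 and 1517 in pre-iPSCs but 52.3 and 202 in iPSCs. S100a4, on chromosome 3 with a start site 9124 bp away and 1 gene between them, was at 763 and 6944, 149 and 431, and 7.42 and 87.2 FPKM. In every cell type both were higher in sample 2, so that S100a4 in the second iPSC sample came within 2-fold of the first pre-iPSC sample. Anxa2, an annexin that links membranes to actin, was at 739 and 1490, 194 and 539, and 38.6 and 75.4 FPKM. Ahnak, a giant scaffold protein that binds S100 and annexin complexes, was at 89.5 and 65.5, 36.9 and 41.7, and 2.38 and 7.94 FPKM. Capn2, the catalytic subunit of a calpain protease, and Cpne2, a copine, completed these 6 genes. The median of the 6 was 657 FPKM in MEFs, 180 in pre-iPSCs but 28.9 in iPSCs.

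Both cavins of the group, coat proteins of the membrane pits called caveolae, had large losses. Ptrf (cavin-1) was at 218 and 378 FPKM in MEFs, 189 and 195 in pre-iPSCs but 14.9 and 18.9 in iPSCs. Prkcdbp (cavin-3) was at 156 and 356, 58.6 and 68.4, and 6.05 and 6.39 FPKM. The samples of the 3 cell types did not overlap for either gene. Among the other caveolar genes, a limma test over 12401 genes called 4 of 6 lower in pre-iPSCs than in MEFs, among them Cav1, the main caveolin, with a log2 change of -3.00 (adjusted p = 0.0028), where 9% of all genes tested were called lower.

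Surface and other membrane proteins were the largest group, with 9 genes, of which 5 were lower in pre-iPSCs than in MEFs in both tables and 3, Cd109, Cd24a and Efna5, higher in both. Cd44, the hyaluronan receptor, was at 193 and 171 FPKM in MEFs, 95.7 and 85.7 in pre-iPSCs but 4.99 and 8.60 in iPSCs, which left 49.6% and 50.1% of the MEF level in pre-iPSCs. Cd109, a GPI-anchored TGF-beta co-receptor, was higher in pre-iPSCs, at 47.6 and 27.3, 103 and 94.1, and 2.15 and 2.39 FPKM. Emp1, an epithelial membrane protein, was nearly level between MEFs and pre-iPSCs, at 314 and 292, 236 and 242, and 16.8 and 39.5 FPKM. Osmr, a receptor subunit for oncostatin M, a cytokine of the LIF family, was level as well. Its values were 25.3 and 29.7, 23.3 and 27.5, and 2.52 and 3.47 FPKM. Cd24a, a GPI-anchored sialoglycoprotein, was among the 11 genes still over 10 FPKM in both iPSC samples, at 145 and 132, 249 and 148, and 26.6 and 23.4 FPKM. Lgals3, a galactoside-binding lectin, differed more between samples than between MEFs and pre-iPSCs, at 54.2 and 167, 67.9 and 160, and 11.02 and 18.3 FPKM. Efna5, an ephrin ligand, was at 7.60 and 14.3, 12.8 and 16.9, and 0.802 and 1.01 FPKM. The last of these genes were Emp2, a relative of Emp1, and Ano10, an anoctamin.

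The 6 genes of the next group act on the extracellular matrix or in the secretory pathway that builds it. Loxl4, a lysyl oxidase that crosslinks collagen and elastin, had the largest loss of the 49 genes, at 15.6 and 12.9 FPKM in MEFs, 17.3 and 19.8 in pre-iPSCs but 0.0969 and 0.329 in iPSCs. Leprel4 (P3h4), a protein of the endoplasmic reticulum needed for collagen modification, was at 69.6 and 73.1, 45.2 and 71.7, and 4.80 and 6.77 FPKM. Fkbp10, a collagen chaperone, lies head to head with Leprel4 on chromosome 11 with start sites 875 bp apart, and was at 174 and 172, 72.6 and 65.3, and 12.9 and 13.8 FPKM. Fstl1, a secreted glycoprotein that binds TGF-beta family members, was at 302 and 565, 280 and 255, and 24.9 and 47.0 FPKM. Timp3, an inhibitor of metalloproteinases, was at 102 and 139, 30.6 and 73.8, and 4.65 and 7.82 FPKM. Ltbp1, which holds latent TGF-beta in the matrix, was at 114 and 57.1, 31.3 and 24.9, and 2.95 and 5.29 FPKM. Loxl4 was thus at the MEF level or above in pre-iPSCs, whereas Ltbp1, Timp3, Fkbp10, Leprel4 and Fstl1 were lower than in MEFs in both tables. Leprel4 was nearly level in the second table and Fstl1 in the first. Of 37 other matrix genes tested with limma, 18 were called lower and 1 higher in pre-iPSCs than in MEFs, where 9% and 7.39% of all genes tested were. In iPSCs 3 were called lower than in pre-iPSCs, where 4.71% of all genes tested were.

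Another 8 genes belong to the cytoskeleton or the nuclear lamina. Lmna, which encodes lamins A and C, was at 258 and 299 FPKM in MEFs, 185 and 209 in pre-iPSCs but 15.1 and 27.5 in iPSCs. Krt19, a keratin of simple epithelia, stood highest in pre-iPSCs relative to MEFs, at 18.6 and 15.3, 95.6 and 231, and 2.81 and 2.99 FPKM. Actg2, the smooth muscle gamma-actin, was at the other end, at 522 and 761, 8.75 and 24.1, and 1.29 and 1.83 FPKM. It met the rule with 1.67% and 3.16% of its MEF level left in pre-iPSCs. Cryab, a small heat-shock protein, was at 60.4 and 488, 43.6 and 41.9, and 3.85 and 6.52 FPKM, an 8-fold spread between the MEF samples. The other members were Dpysl3, Limch1, Tns1 and 2610034B18Rik (Arpin), all linked to actin or microtubules. Of 32 other actin and focal adhesion genes tested with limma, 27 were called lower in pre-iPSCs than in MEFs, where 9% of all genes tested were.

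Transcription factors made up 7 of the genes, and all were below 100 FPKM. Tbx15, a T-box factor of mesenchyme, was at 23.5 and 17.1 FPKM in MEFs, 44.7 and 21.1 in pre-iPSCs but 1.22 and 2.27 in iPSCs. Foxd1, a forkhead factor of stroma, was at 5.81 and 4.69, 13.6 and 12.4, and 0.160 and 0.0362 FPKM. Fosl2, a subunit of AP-1, was at 27.8 and 24.6, 13.1 and 20.5, and 1.39 and 4.21 FPKM. The homeobox genes Emx2, Hoxa7 and Irx2 and Mxd4, a Max partner that opposes Myc, made up the rest. Hoxa7 was at 7.55 and 8.75, 14.7 and 7.92, and 0.988 and 1.07 FPKM, and Emx2 at 7.11 and 7.49, 4.52 and 6.96, and 0.241 and 0.512 FPKM. Foxd1 was the only of the 7 to be at least 2 times as high in pre-iPSCs as in MEFs in both tables. Of 26 other mesenchymal transcription factors tested with limma, 16 were called lower and 1 higher in pre-iPSCs than in MEFs, against 9% and 7.39% of all genes. Of 16 other AP-1 and immediate early genes, 2 were called lower and 5 higher, among them Fos with a log2 change of 3.95 (adjusted p = 0.00564), where 7.39% of all genes tested were called higher.

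The 5 signalling genes were Grb10, an imprinted adaptor of the insulin receptor, Arhgef5 and Rin3, exchange factors for small GTPases, Mras, a Ras-related GTPase, and Tmem173 (STING), the adaptor of cytosolic DNA sensing. Mras was higher in pre-iPSCs, at 12.6 and 12.4 FPKM in MEFs, 39.0 and 31.3 in pre-iPSCs but 2.08 and 1.63 in iPSCs. The 5 genes of metabolism and transport included Sfxn3, a mitochondrial serine carrier, at 30.9 and 53.3, 29.2 and 48.0, and 3.40 and 3.60 FPKM. Gsto1, a glutathione transferase, was at 475 and 1343, 274 and 254, and 51.6 and 59.5 FPKM. Fabp5, a fatty acid carrier, differed between the pre-iPSC samples, at 155 and 104, 25.8 and 143, and 5.55 and 14.6 FPKM. Cbr2, a carbonyl reductase, was at 3.28 and 90.5, 19.2 and 12.7, and listed at 0 in both iPSC samples. Ddah1, which degrades methylated arginine, was the last of these, and 1300014I06Rik (Pxdc1) was placed in no role.

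In pre-iPSCs against MEFs, 8 of the 49 genes were higher in both tables, 29 lower in both and 12 opposite in the 2 tables. Of the 12401 genes that averaged 0.5 FPKM or more, 4206 were higher in both, 4747 lower in both and 3307 opposite. At least 2-fold higher in both tables were 4, Krt19, Mras, Foxd1 and Cd109, where 8.35% of the 12401 genes that averaged 0.5 FPKM or more were. At most 0.5 times as high were 9, where 10.4% of these genes were, and the lowest by the smaller of the differences in the 2 tables were Actg2, S100a4, S100a6, Emp2 and Anxa2. Emp2 was at 34.1 and 52.9, 6.34 and 15.6, and 0.714 and 1.39 FPKM. The median log2 difference of pre-iPSCs from MEFs was -0.61 in the first table and -0.15 in the second, against -2.79 and -2.76 for iPSCs from pre-iPSCs. Samples of a cell type differed over 2-fold for 12 genes in MEFs, 13 in pre-iPSCs but 8 in iPSCs, and 39 of the 49 genes were higher in the second iPSC sample than in the first.

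Over 17 lists, from caveolae and matrix to AP-1 factors, interferon response and oxidative stress, 346 genes outside the group were tested with limma, with the table as a term. Between MEFs and pre-iPSCs 149 were called lower in pre-iPSCs and 27 higher, against 9% and 7.39% of all genes tested. Between pre-iPSCs and iPSCs 32 were called lower and 3 higher, against 4.71% and 3.91%. Between MEFs and iPSCs 185 were called lower and 16 higher, against 15.5% and 10.3%. Since the genes that met the rule were left out of these lists, the balance between the steps is partly fixed by the rule. Of annexins and S100 proteins 5 of 14 others were called lower in iPSCs than in pre-iPSCs, among them S100a3 (log2 change -7.08, adjusted p = 0.000484) and S100a10, the partner of Anxa2 (log2 change -2.19, adjusted p = 0.0324). The calls between pre-iPSCs and iPSCs depended on single libraries, since the total of 35 became 4 without iPSC sample 1, 2 without iPSC sample 2, 19 without pre-iPSC sample 2, and 98 and 106 without MEF samples 1 and 2. The total of 176 in pre-iPSCs against MEFs became 106 without pre-iPSC sample 2, and that of 201 in iPSCs against MEFs became 112 and 126 without iPSC samples 1 and 2.

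At the promoters of the 49 genes no change of H3K4me3 was called within 500 bp of the start site. Reads of nucleosome calls were counted there and expressed as RPKM, reads per kilobase for every 1000000 unique reads. The median of the 49 promoters was 1.76 and 1.47 RPKM in MEFs, 1.23 and 0.975 in pre-iPSCs but 1.24 and 0.987 in iPSCs, against 1.22 and 0.956, 0.859 and 0.715, and 0.931 and 0.790 for all 20156 genes. The median of the 49 was thus above that of all genes in every library, also in iPSCs, where their RNA was low, while Actg2 and some other genes lay below the all-gene median there. Ptrf was at 2.98 and 1.78 RPKM in MEFs, 1.59 and 1.10 in pre-iPSCs but 0.993 and 0.987 in iPSCs. Cd44 was at 1.63 and 0.701, 1.78 and 1.04, and 1.80 and 0.790 RPKM, with its samples overlapping across all cell types. S100a4, by contrast, was at 0.678 and 1.34, 1.23 and 1.17, and 0.310 and 0.724 RPKM, lower in both iPSC libraries than in both pre-iPSC libraries.

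The edgeR quasi-likelihood test over 14870 promoters called 0 of the 49 for H3K4me3 in any of the 3 comparisons, and DESeq2 also called 0. At an unadjusted p under 0.05, edgeR gave 4 of the 49 between iPSCs and MEFs, 5 between iPSCs and pre-iPSCs and 7 between pre-iPSCs and MEFs. Of all 14870 promoters it gave 3187, 1091 and 2183. Over all promoters tested, 0.33% were called lower and 1.6% higher in pre-iPSCs than in MEFs, 1.18% lower and 4.97% higher in iPSCs than in MEFs, and 0% either way between iPSCs and pre-iPSCs. Both iPSC libraries were higher than both pre-iPSC libraries at 8 of the 49 promoters, where 21.5% of all promoters were, and lower at 9, where 11.5% were. Against both MEF libraries, both pre-iPSC libraries were lower at 27 (all promoters 40.7%) and higher at 2 (9.95%). Both iPSC libraries were lower than both MEF libraries at 21 (37.1%) and higher at 1 (14.5%). Within 1000 bp these counts were 21 (46.0%) and 3 (11.3%) for pre-iPSCs, and 30 (44.3%) and 0 (15.5%) for iPSCs. In data simulated for this comparison, 4-fold rises were called at 49 of 50 promoters and 4-fold falls at 25 of 50, but 2-fold rises at 11 of 50 and 2-fold falls at 2 of 50, so that a 2-fold change of H3K4me3 was mostly not detectable. The measured range of H3K4me3 was also narrow, since within 1000 bp the 99th percentile of all promoters was 2.04 to 2.56 times the median of a library, against 4 to 6 times for H3K27me3. Within 1000 bp of the start site 3 genes were called in pre-iPSCs against MEFs, Loxl4 higher (log2 change 1.01) and Sfxn3 (-0.94) and Arhgef5 (-0.86) lower, where 3.06% of all promoters tested were called higher and 0.825% lower. In iPSCs against MEFs 4 were called there, Loxl4 higher (0.89) and Arhgef5 (-0.98), Tbx15 (-0.87) and Ddah1 (-0.78) lower, where 9.76% were called higher and 4.08% lower. These calls rested on the tool and on single libraries, and DESeq2 called 0 of the 49 in both comparisons. With unique reads as library size 0 of the 49 were called higher in either, and 4 and 9 lower in pre-iPSCs and in iPSCs against MEFs. Of all 17697 promoters 232 and 841 were then called higher and 1120 and 2349 lower.

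H3K27me3 at these promoters was higher in iPSCs than in pre-iPSCs. Within 1000 bp of the start site the median of the 49 promoters was 0.121 and 0.212 RPKM in MEFs, 0.169 and 0.153 in pre-iPSCs but 0.548 and 0.448 in iPSCs. All 20156 genes had medians of 0.182 and 0.212, 0.225 and 0.214, and 0.259 and 0.239 RPKM. The median of the 49 genes thus stood above 28.9% and 48.7% of all promoters in MEFs, 31.4% and 30.9% in pre-iPSCs but 81.5% and 72.3% in iPSCs. These were low levels, since the median promoter of the 49 held 4 to 19 reads in a library. Whether they exceeded the genome-wide background of a library was not tested, and no domains of the mark were called.

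Both iPSC libraries were higher than both pre-iPSC libraries at 44 of the 49 promoters, where 22.5% of all promoters were, and lower at 0, where 14.7% were. The 5 others were those of Ano10, Fabp5, Mxd4, Rin3 and Tns1. Within 500 bp the iPSC libraries were higher at 39 of 49, where 19.1% of all promoters were and 14.8% were lower. Taken a pair of libraries at a time, between 46 and 49 of the 49 promoters were higher in the iPSC library, where 48.7% to 59.0% of all promoters were. With no filter on low counts all 49 had a positive log2 change in the edgeR fit, with a median of 1.34.

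**Figure D3:**
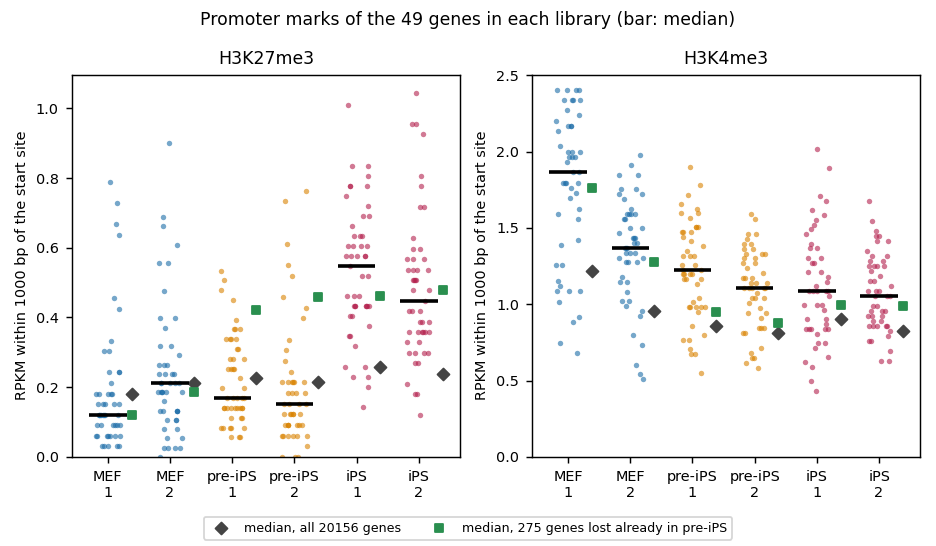
H3K27me3 (left) and H3K4me3 (right) at the 49 promoters in each library, as RPKM within 1000 bp of the start site; each point is a gene and the bar is their median, with diamonds for the median of all 20156 genes and squares for that of the 275 genes lost already in pre-iPSCs. For H3K27me3 the bars stand at 0.169 and 0.153 in pre-iPSCs but at 0.548 and 0.448 in iPSCs, above the diamonds, while the H3K4me3 bars of the same cells stay between 1.05 and 1.23.

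The edgeR test within 1000 bp was made over 10404 promoters that passed the filter on low counts. Of the 49 genes 41 passed, and since a promoter can pass through the cell type in which it is high, the share of those called is not read against that of all promoters. In iPSCs against pre-iPSCs 11 were called higher and 0 lower, where 0.654% of all promoters tested were called higher and 0.135% lower. At an unadjusted p under 0.05 were 31 of the 41 and 1187 of all 10404. The 11 called were Leprel4, Sfxn3, Efna5, Fkbp10, S100a4, Emx2, Loxl4, Osmr, Mras, Emp1 and Tmem173, with log2 changes from 1.68 to 2.78 and adjusted p from 0.00859 to 0.0413. Leprel4 and Fkbp10 share most of their reads, because their windows overlap. With no filter all 49 were tested and 7 were called, where 0.192% of all promoters were called higher and 0.0504% lower. They were Leprel4, Sfxn3, Efna5, Fkbp10, S100a4, Emx2 and Loxl4. In data simulated for this comparison 4-fold rises were called at 50 of 50 promoters and 2-fold rises at 17 of 50, and 11 unchanged promoters were called. The call rested on the tool and on single libraries. DESeq2 called 0 of the 41 genes and 0 of all 10404 promoters, with 19 of the 41 at an unadjusted p under 0.05. With edgeR 0 were called without iPSC library 1 (24 of 46 at an unadjusted p under 0.05), 2 without either pre-iPSC library, 8 without iPSC library 2 and 14 without either MEF library, and with the replicate number as a block 7 were called.

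Single promoters show how few reads carried these changes. Sfxn3 was at 0.0606 and 0.0530 RPKM in MEFs, 0.0563 and 0.122 in pre-iPSCs but 0.605 and 0.567 in iPSCs, from 2 and 2, 2 and 4, and 21 and 19 reads (log2 change in iPSCs against pre-iPSCs 2.64, adjusted p = 0.00859, edgeR). S100a4 was at 0.0909 and 0.0795, 0.225 and 0.0917, and 1.01 and 0.507 RPKM, from 3 and 3, 8 and 3, and 35 and 17 reads (log2 change 2.17, adjusted p = 0.00859, edgeR). In both, the iPSC libraries lay well above the other 4. Loxl4 was at 0.333 and 0.397, 0.141 and 0.214, and 0.720 and 0.716 RPKM (log2 change in iPSCs against pre-iPSCs 1.96, adjusted p = 0.0142, edgeR). Its pre-iPSC libraries also lay below its MEF libraries, a difference that was not called and cannot be told apart from the digestion. Efna5 was at 0.0909 and 0.185, 0.0844 and 0.0917, and 0.605 and 0.388 RPKM (log2 change 2.41, adjusted p = 0.0198, edgeR). Cd44, which was not called in this comparison, was at 0.0606 and 0.0265, 0.169 and 0.0917, and 0.375 and 0.507 RPKM. It had 2 and 1, 6 and 3, and 13 and 17 reads, so its iPSC libraries did not overlap the others either.

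In iPSCs against MEFs the edgeR test within 1000 bp called 22 of the 41 genes higher, where 7.22% of all promoters tested were called higher and 3.87% lower, and 7 of these were also among the 11. The largest log2 changes were those of Capn2 (3.59, adjusted p = 0.00207), Fosl2 (3.48, adjusted p = 0.00254), Sfxn3 (3.24, adjusted p = 0.000109) and Cd44 (3.21, adjusted p = 0.00096). These log2 changes start from 1 or 2 reads a library in MEFs and depend on the prior count of the fit. Without filter 22 of the 49 were called, where 3.11% of all promoters were called higher and 2.96% lower. The count was 10 without iPSC library 1, 14 without iPSC library 2, and 11 and 12 without MEF libraries 1 and 2, and DESeq2 called 0. In pre-iPSCs against MEFs edgeR called 1 of the 41 higher, Cpne2 (log2 change 1.48, adjusted p = 0.0233), where 5.02% of all promoters were called higher and 3.1% lower. It called 2 lower, Foxd1 (log2 change -1.91, adjusted p = 0.00329) and Limch1 (log2 change -1.26, adjusted p = 0.0214). These 3 calls became 1 without MEF library 2 and 1 without pre-iPSC library 2, and DESeq2 called 0. Foxd1 was at 0.788 and 0.556 RPKM of H3K27me3 in MEFs, 0.253 and 0.0917 in pre-iPSCs but 0.692 and 0.448 in iPSCs. It was 1 of 4 genes with at least 2-fold more RNA in pre-iPSCs than in MEFs in both tables. The others, Krt19, Mras and Cd109, were not called for H3K27me3 in this comparison. The RNA of Limch1 and Cpne2 differed in opposite directions in the 2 tables.

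Within the narrower window of 500 bp, where a promoter held a median of 2 to 8 reads, 11 of the 49 genes passed the filter. Since a promoter could pass through the cell type in which it is high, as S100a4 did with 2 and 0 reads in MEFs against 16 and 10 in iPSCs, the calls are not read against the shares of all promoters. There edgeR called 0 in pre-iPSCs against MEFs and 0 in iPSCs against pre-iPSCs, with 3 and 5 of the 11 at an unadjusted p under 0.05. Of all 4428 promoters tested 729 and 383 were under that p, 1.49% and 0.0903% were called higher and 0.903% and 0% lower. DESeq2 called 0 of the 11 in both. With the replicate number as a block edgeR called Foxd1 lower in pre-iPSCs against MEFs (adjusted p = 0.0441, against 0.0501 with no block). In iPSCs against MEFs 3 were called higher, Emp2, Cpne2 and S100a4, where 2.78% were called higher and 1.29% lower, and DESeq2 called 0. Without filter 2 were called. With the replicate number as a block Cpne2 was not called (adjusted p = 0.0611, edgeR), and 0 were called without either MEF library or either iPSC library.

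Other signals moved in the same libraries, and their part in the difference of H3K27me3 was not tested. H3K9me3, with 1 library of each cell type and so with no test, had medians within 1000 bp of 0.197, 0.187 and 0.364 RPKM at the 49 promoters in MEFs, pre-iPSCs and iPSCs, against 0.197, 0.218 and 0.265 for all genes. It was higher in iPSCs than in pre-iPSCs at 43 of the 49, where 60.1% of all promoters were. Nucleosome occupancy by H3 had medians of 0.196 and 0.189, 0.643 and 0.144, and 0.540 and 0.227 RPKM, so that library 1 of pre-iPSCs and of iPSCs stood apart from the other 4. H3 was higher in iPSCs than in pre-iPSCs at 13 of the 49 promoters between the libraries numbered 1 (25.1% of all promoters) and at 46 between those numbered 2 (66.9% of all promoters), while H3K27me3 was higher at 49 and 49. After TMM scaling within 500 bp, H3 had a positive log2 change in iPSCs against pre-iPSCs at 44 of the 49 promoters, with a median of 0.44, and at 10132 of all 18898 tested, with a median of 0.04. edgeR called 0 of the 49 for H3 in any comparison, and DESeq2 called 0. In iPSCs against pre-iPSCs 3 of the 49 and 122 of all 18898 promoters were at an unadjusted p under 0.05 in edgeR. In data simulated for H3 in this comparison 8-fold rises were called at 30 of 50 promoters and 8-fold falls at 15 of 50. Smaller changes of H3 were not simulated, and the 0 calls do not show that H3 was unchanged.

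A set of 275 genes chosen by the same 4-fold rule but lost already in pre-iPSCs, with MEFs at least 4 times both other cell types in both tables, is given beside the 49. Their H3K27me3 medians within 1000 bp were 0.121 and 0.186 RPKM in MEFs, 0.422 and 0.459 in pre-iPSCs but 0.461 and 0.478 in iPSCs. Both pre-iPSC libraries were higher than both MEF libraries at 211 of these 275 promoters and at 13 of the 49, where 27.4% of all promoters were. Both iPSC libraries were higher than both pre-iPSC libraries at 81 of the 275 (29.5%) and at 44 of the 49 (89.8%). Both iPSC libraries were higher than both MEF libraries at 220 of the 275 and at 39 of the 49, where 30.8% of all promoters were. With no filter edgeR called 85 of the 275 and 0 of the 49 higher in pre-iPSCs against MEFs (8 of the 49 and 3070 of all 19832 promoters at an unadjusted p under 0.05), where 1.85% of all promoters were called higher and 1.85% lower. Between iPSCs and pre-iPSCs it called 2 of the 275 and 7 of the 49 higher in iPSCs, where 0.192% of all promoters were called higher and 0.0504% lower, and these calls rest on the tool and on single libraries as given above. In each set the H3K27me3 medians were higher in the cells in which its RNA was low. For the 275 genes this is a difference from MEFs only, which cannot be told apart from the digestion. Neither the difference between the sets nor a link between mark and RNA was tested. H3K9me3 also differed in the 275, being higher in pre-iPSCs than in MEFs at 200 of them and at 25 of the 49, where 52.0% of all promoters were. H3 after TMM scaling within 500 bp had a median log2 change of 0.43 at the 275 in pre-iPSCs against MEFs, where that of the 49 was 0.01, and of -0.05 between pre-iPSCs and iPSCs. In pre-iPSCs against MEFs edgeR called 0 of the 274 of them tested for H3, with 17 of them and 318 of all 18898 promoters at an unadjusted p under 0.05.

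**Figure D4:**
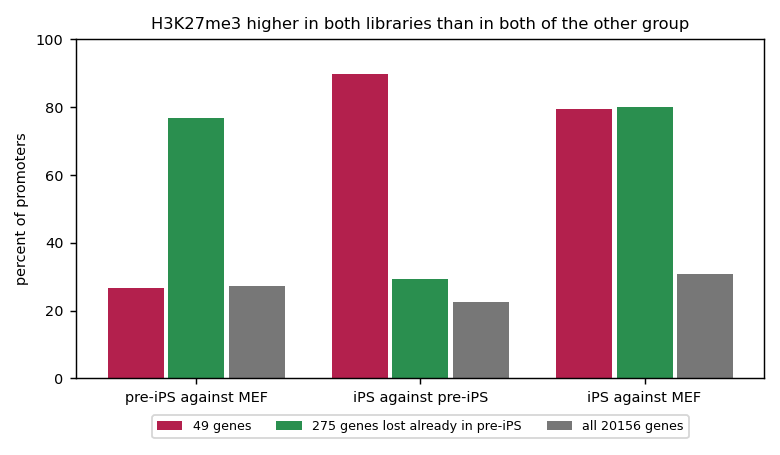
Percentage of promoters at which both H3K27me3 libraries of the first cell type were higher than both of the second, within 1000 bp of the start site, for the 49 genes, the 275 genes lost already in pre-iPSCs and all 20156 genes, in each of 3 comparisons. In pre-iPSCs against MEFs the bar of the 275 genes is the tall one (76.7%), in iPSCs against pre-iPSCs that of the 49 genes (89.8%), and in iPSCs against MEFs both stand near 80%.

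The difference covered most of the region plotted around the start sites, and both sets had a dip of H3K27me3 at the start site itself in every library. At the 49 genes the iPSC profiles lay above those of MEFs and pre-iPSCs over nearly all of the 2000 bp either side, and at the 275 genes the pre-iPSC and iPSC profiles ran together above those of MEFs. The H3K4me3 profiles peaked downstream of the start site, and in MEF library 1 they were higher than in all other libraries for both sets.

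**Figure D5:**
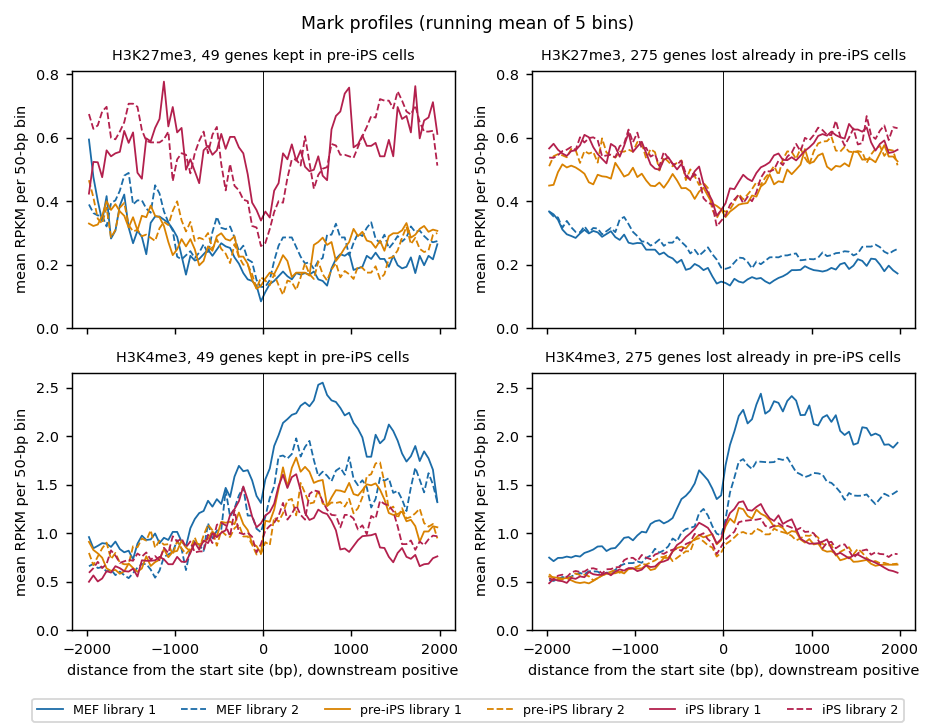
Mean H3K27me3 (top) and H3K4me3 (bottom) in bins of 50 bp by distance from the start site, as a running mean of 5 bins, for the 49 genes (left) and the 275 genes lost already in pre-iPSCs (right); solid lines are library 1 and dashed lines library 2. In the upper left panel only the iPSC lines are raised, and in the upper right panel the pre-iPSC and iPSC lines are raised together over the MEF lines.

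With a mark called present above 1 RPKM within 500 bp, H3K4me3 without H3K27me3 was found at 44 and 41 of the 49 promoters in MEFs, 35 and 24 in pre-iPSCs but 33 and 23 in iPSCs. Over all genes it was found at 55.7% and 47.0%, 40.1% and 30.4%, and 44.2% and 32.0%. It was present in both libraries at 38 of the 49 in MEFs, 20 in pre-iPSCs but 19 in iPSCs. The share of all genes with it in both libraries was not computed. In single libraries the shares of all genes were likewise lower than in MEFs, for pre-iPSCs as for iPSCs. H3K4me3 together with H3K27me3 was found at 1 promoter in 1 library, that of Hoxa7 in iPSC library 1. Over all genes both marks were found at 0.739% and 0.650% in MEFs, 0.566% and 0.437% in pre-iPSCs but 0.903% and 0.645% in iPSCs. Neither mark reached the level at Grb10 in any library, nor at Actg2 and Sfxn3 in any pre-iPSC or iPSC library. The H3K27me3 of the 49 promoters in iPSCs thus mostly stayed under this level.

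The promoter sequences were read from the mm9 genome. Over 500 bp either side of the start site the 49 promoters had a median GC content of 61.6% and a CpG observed over expected ratio of 0.645, against 56.1% and 0.601 for all genes. With at least 50% GC and a ratio of at least 0.6, 27 of the 49 (55.1%) were CpG-rich, as were 48.8% of all promoters. H3K27me3 within 1000 bp was higher in both iPSC than in both pre-iPSC libraries at 23 of the 27 CpG-rich promoters and at 21 of the 22 others. Of all promoters 22.5% were, a share that was not split by CpG content. Of the 11 called 5 were CpG-rich. The promoters of S100a4 and Efna5 are shown because both were called higher for H3K27me3 in iPSCs and stand far apart in CpG content. Each sequence runs 5' to 3' on the strand of the gene from 250 bases before the start site to the base before it, with CG in capitals. That of S100a4 (chr3:90407442-90407691, plus strand) holds 2 CpG and that of Efna5 (chr17:63230667-63230916, minus strand) holds 32.
S100a4: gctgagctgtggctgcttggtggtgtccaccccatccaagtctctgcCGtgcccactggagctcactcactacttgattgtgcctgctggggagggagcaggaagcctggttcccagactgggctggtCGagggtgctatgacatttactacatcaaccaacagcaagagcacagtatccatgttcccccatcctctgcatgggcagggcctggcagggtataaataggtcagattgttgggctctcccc
Efna5: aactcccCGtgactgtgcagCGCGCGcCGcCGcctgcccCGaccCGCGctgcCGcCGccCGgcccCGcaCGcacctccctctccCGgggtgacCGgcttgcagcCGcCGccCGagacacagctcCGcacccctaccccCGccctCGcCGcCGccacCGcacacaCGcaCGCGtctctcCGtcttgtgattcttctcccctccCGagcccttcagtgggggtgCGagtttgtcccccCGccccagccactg

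Motifs were searched on both strands of a shorter stretch, from 250 bp before to 50 bp after the start site, and a match is a match of letters only. The AP-1 motif TGANTCA was found in 7 of the 49 promoters (14.3%) and in 6.80% of all promoters. Its holders were Prkcdbp, Emp1, Osmr, Cd109, Capn2, Anxa2 and Lmna, and 23 of the 275 genes lost already in pre-iPSCs (8.36%) held it. The TEAD motif GGAATG was found in 8 (16.3%, all promoters 12.8%), among them both cavins, the E-box CANNTG in 29 (59.2%, all promoters 67.5%), TATAAA in 4 (8.16%, all promoters 12.7%) and GGGCGG, the SP1 motif, in 36 (73.5%, all promoters 49.1%). The SRF motif known as the CArG box was found in 3 (6.12%, all promoters 1.36%), those of Actg2, Gsto1 and Cbr2. In the 275 genes lost already in pre-iPSCs the shares were 18.5% for TEAD, 61.5% for the E-box, 13.8% for TATAAA, 62.2% for SP1 and 4.36% for the CArG box. No test was made of these shares. The AP-1 motifs of 4 genes that were kept in pre-iPSCs are shown in capitals, in sequences of the same extent and orientation as above. They are those of Anxa2 (chr9:69301240-69301489, plus strand), Cd109 (chr9:78463103-78463352, plus strand), Emp1 with 2 motifs (chr6:135312699-135312948, plus strand) and Prkcdbp (chr7:112630712-112630961, minus strand).
Anxa2: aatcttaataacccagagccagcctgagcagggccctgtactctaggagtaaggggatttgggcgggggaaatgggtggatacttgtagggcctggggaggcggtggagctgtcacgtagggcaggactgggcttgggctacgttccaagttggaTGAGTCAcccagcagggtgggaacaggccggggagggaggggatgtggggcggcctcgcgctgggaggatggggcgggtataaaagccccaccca
Cd109: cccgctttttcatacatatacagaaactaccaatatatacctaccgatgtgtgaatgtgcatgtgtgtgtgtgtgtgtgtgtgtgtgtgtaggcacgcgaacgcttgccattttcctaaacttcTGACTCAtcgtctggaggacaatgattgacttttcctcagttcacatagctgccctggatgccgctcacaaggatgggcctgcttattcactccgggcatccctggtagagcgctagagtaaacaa
Emp1: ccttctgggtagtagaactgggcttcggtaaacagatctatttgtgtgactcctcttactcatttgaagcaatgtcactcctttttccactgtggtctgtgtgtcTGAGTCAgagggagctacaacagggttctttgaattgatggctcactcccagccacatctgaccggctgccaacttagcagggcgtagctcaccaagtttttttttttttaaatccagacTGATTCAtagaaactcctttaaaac
Prkcdbp: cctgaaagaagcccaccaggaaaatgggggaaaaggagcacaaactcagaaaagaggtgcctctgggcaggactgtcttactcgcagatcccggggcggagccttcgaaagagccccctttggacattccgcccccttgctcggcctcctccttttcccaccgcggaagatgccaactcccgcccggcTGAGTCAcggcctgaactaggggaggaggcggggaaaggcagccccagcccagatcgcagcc

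The motif of Anxa2 starts 95 bases before the start site, that of Cd109 126, that of Prkcdbp 62, and those of Emp1 145 and 25. Of these 4 genes Cd109 was higher in pre-iPSCs than in MEFs, Emp1 nearly level and Anxa2 and Prkcdbp lower. Their H3K27me3 within 1000 bp was higher in both iPSC than in both pre-iPSC libraries in each, with Anxa2 at 0.0303 and 0.0530 RPKM in MEFs, 0.141 and 0.122 in pre-iPSCs but 0.231 and 0.418 in iPSCs. Emp1, the 1 of the 4 called by edgeR (log2 change 1.81, adjusted p = 0.0334), was at 0.152 and 0.133, 0.281 and 0.0611, and 0.749 and 0.537 RPKM.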

How the data were processed

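The data are RNA-seq and MNase ChIP-seq of mouse MEFs, pre-iPSCs and iPSCs. For ChIP-seq the authors aligned reads to mm9 (Bowtie 1.0.1 in the processing notes), limited duplicate reads and called nucleosomes. The deposited values are the read count of each call and a fuzziness signal in bp, which the authors derived from read positions and which was not used. For RNA-seq the authors deposited FPKM (TopHat2 2.0.4, Cufflinks 2.0.2) in 2 tables, which were normalised separately, so ratios were taken within a table. Reads in calls numbered 67362868 to 108211816 a library for H3, 12007350 to 13146349 for H3K4me3, 13224775 to 15222040 for H3K27me3 and 12222861 to 12942154 for H3K9me3. The FPKM tables hold no read counts, and the read totals that the study lists for its RNA libraries were not used here.

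Here, reads of calls with dyads within 500 or 1000 bp of the start site were summed and tested over all promoters by the quasi-likelihood method of edgeR 4.0.16, after filterByExpr and TMM scaling, and by DESeq2 1.42.0, with Benjamini-Hochberg adjusted p-values under 0.05. RPKM used the unique reads of the study's methods as library size. Genes outside the group were tested with limma 3.58.1 on log2(FPKM + 1), where they averaged 0.5 FPKM or more, at an adjusted p under 0.05 and 2-fold. The tests were checked on simulated data, in which limma recovered 168 of 200 falls of 4-fold in iPSCs against pre-iPSCs with 19 false calls. R 4.3.3, Python 3.11.15, numpy 2.4.6 and pandas 2.3.3 were used.

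Samples were grouped by their labels. The group of 49 genes, the lists and the rule for named genes were chosen with earlier results of these data known, and roles were assigned once the genes were known. Named are the 10 genes highest in pre-iPSCs, the 10 of largest loss, up to 4 of each list, the 5 of largest change in a called mark in each direction, the 3 just inside and outside the rule and the 5 highest and lowest against MEFs, which came to 29 of the 49. Others were named after their values were seen. Alternatives concerned the rule, scaling, filter, tool, window, reads of a call, replicate block and each library left out. The alternatives to the 1000-bp test of H3K27me3 were chosen after seeing the data.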

Additional observations from a re-analysis of the deposited data

How the results depend on the processing

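The rule of the group set its size. It took 101 genes at 3-fold, 5 at 8-fold and 128 to 138 in 1 table alone, 70 with a pseudocount of 0.5, which held all 49, and 34 after quantile normalisation, which held 32 of the 49. For H3K4me3 within 500 bp the 0 calls in pre-iPSCs against MEFs became 1 with unique reads as library size and 3 within 1000 bp, and the 0 in iPSCs against MEFs became 4 within 1000 bp. For H3K27me3 within 500 bp the 0 in pre-iPSCs against MEFs became 1 with unique reads, 1 with the replicate block and 3 within 1000 bp, the 0 in iPSCs against pre-iPSCs became 1 without filter and 11 within 1000 bp, and the 3 in iPSCs against MEFs became 1 with unique reads, 0 with DESeq2, 0 with calls of at least 2 reads and 22 within 1000 bp. Leaving out each library in turn gave 0 to 3 for the last of these and 0 to 0 for the other calls within 500 bp. Within 1000 bp the H3K27me3 calls ranged over 1 to 3, 0 to 14 and 10 to 23 in pre-iPSCs against MEFs, iPSCs against pre-iPSCs and iPSCs against MEFs with a library left out. DESeq2 gave 0, 0 and 0. In iPSCs against pre-iPSCs 7 were called without filter and 7 with the replicate block. The cause of these changes was not tested. The lone library of a cell type was taken to vary like the others.

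H3K4me3 above 2 RPKM in both libraries was found at 5, 1 and 0 of the 49 promoters in MEFs, pre-iPSCs and iPSCs, and with H3K27me3 at 0. The share of all genes with this in both libraries was not computed. Library 1 alone gave 24.7% of all genes for MEFs, 3.28% for pre-iPSCs but 5.16% for iPSCs. Library 2 gave 10.1%, 0.883% and 0.660%, so the lower counts than in MEFs were not limited to the 49 genes. The limma calls over the lists were 21 in place of 35 in iPSCs against pre-iPSCs without filter, and ranged over 106 to 205, 2 to 106 and 112 to 221 in the 3 comparisons with a library left out. In the tests of marks the replicate numbers were not taken to pair the samples, since in no data type were all 3 correlations over 0.1. The limma tests did hold the table, and so the replicate number, as a term. Deviations of same-numbered libraries correlated at -0.05, -0.02 and 0.12 for H3K4me3, 0.01, -0.03 and 0.01 for H3K27me3 and 0.35, -0.20 and 0.11 for RNA (MEFs with pre-iPSCs, MEFs with iPSCs, pre-iPSCs with iPSCs), and at -0.02, 0.01 and 0.73 for H3. The block changed no other call count by over 1.5 times. Depth limited the marks, with a median of 2 to 8 reads of H3K27me3 within 500 bp and 15 to 26 of H3K4me3.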
